A study of Mus musculus with 2 samples.

Results

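The genes described are the 9 chains of the receptors for IFN-γ (Ifngr1, Ifngr2), type I interferons (Ifnar1, Ifnar2), IL-10 (Il10ra, Il10rb), IL-27 (Il27ra) and IL-6 (Il6ra, with Il6st shared by IL-27), taken by gene symbol from the platform annotation. They are 9 of the 20738 genes named on the arrays and were read by 11 of the 55681 probes. The study compared C57BL/6 mouse T helper cells carrying a Gfi1 knockout with Gfi1 wild-type cells. Gfi1 encodes a zinc-finger repressor of transcription. Naive CD4 T cells of the spleen were cultured for 2 days on antibody to the T cell receptor β chain (3 µg/ml) with antibody to CD28 (1 µg/ml). Both cultures also held IL-2 (10 ng/ml) and neutralising antibodies to IL-4 and to IFN-γ (5 µg/ml of each), so one of the ligands of these receptors was targeted in both. RNA of 1 culture labelled Gfi1 knock out and 1 culture labelled Gfi1 wild type was read on 1-colour arrays, 1 per genotype. The kind of knockout allele, the age of the mice and any pooling were not stated in the labels used here. With 1 array per genotype no difference had a replicate check and no p-value is given.

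These receptors all signal through kinases of the JAK family and transcription factors of the STAT family. Each pairs a chain that binds its ligand with a chain that completes the signalling complex. In CD4 T cells, IL-10 and IL-6 act mainly through STAT3, which IL-27 also uses. The IL-10 and IL-27 receptors are known for restraining T cell responses, and the IL-6 receptor for steering T helper differentiation.

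The 75th percentile of probe signals, by which each array was scaled, was 269 units in the knockout-labelled library and 263 units in the wild-type-labelled library. Differences are log2 values of the scaled signals, knock out minus wild type by label, and the median over the 13411 genes detected on at least 1 array was -0.05. A gene counted as detected where a probe exceeded its array's median. The Gfi1 probe itself was brighter in the knockout-labelled library (18100 units) than in the wild-type-labelled library (4260 units). It was read on 1 spot, with feature number 55280, and spots above 50000 were left out in 1 alternative setting. Where this probe lies relative to the deleted part was not stated in the labels used here, so libraries go by their labels and every direction depends on them. Eif2s3y, a Y-linked gene, read 3870 units in the knockout-labelled library and 2.91 units in the wild-type-labelled library, whereas Xist, the RNA of the inactive X chromosome, read 3.86 units in the knockout-labelled library and 447 units in the wild-type-labelled library. Genotype and these sex-linked readings cannot be told apart in any difference below. In bulk RNA, fewer cells that express a gene and less of its RNA per cell also cannot be told apart. Of 12 markers of CD4 T cells, 9 had a named probe and all 9, Cd3e and Cd4 among them, were detected on both arrays.

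All 9 receptor genes were detected on both arrays. Il10ra was 3.42-fold higher in the knockout-labelled library and was the member that passed a 2-fold difference. Il6ra was 1.82-fold higher, and Il6st, the chain through which the IL-6 receptor signals, was 1.46-fold lower. The other 6 genes differed by less than 1.2-fold, as did 65.8% of all detected genes. Among genes that reached 300 units on an array, 75.4% did so. Thus 1 of 9 members was at least 2-fold higher, where 3.62% of all detected genes were, and 0 of 9 were at least 2-fold lower, where 1.52% were. At 1.5-fold, 2 of 9 were higher (7.67% of all detected genes) and 0 were lower (4.25%). Each member reached at least 300 units on an array, and among the 7907 genes that did so 2.12% passed 2-fold upward and 0.341% downward. The median difference of the members was 0.18, and 0.08 over the 8 members other than Il10ra, against -0.05 over all genes. Above 0 lay 5 members and below it 4, where 41.6% of all detected genes lay above 0. Among the genes that reached 300 units this share was 37.5%. The split of the members was 7 above and 2 below with cyclic loess, and 6 above and 3 below without scaling.

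**Figure D1:**
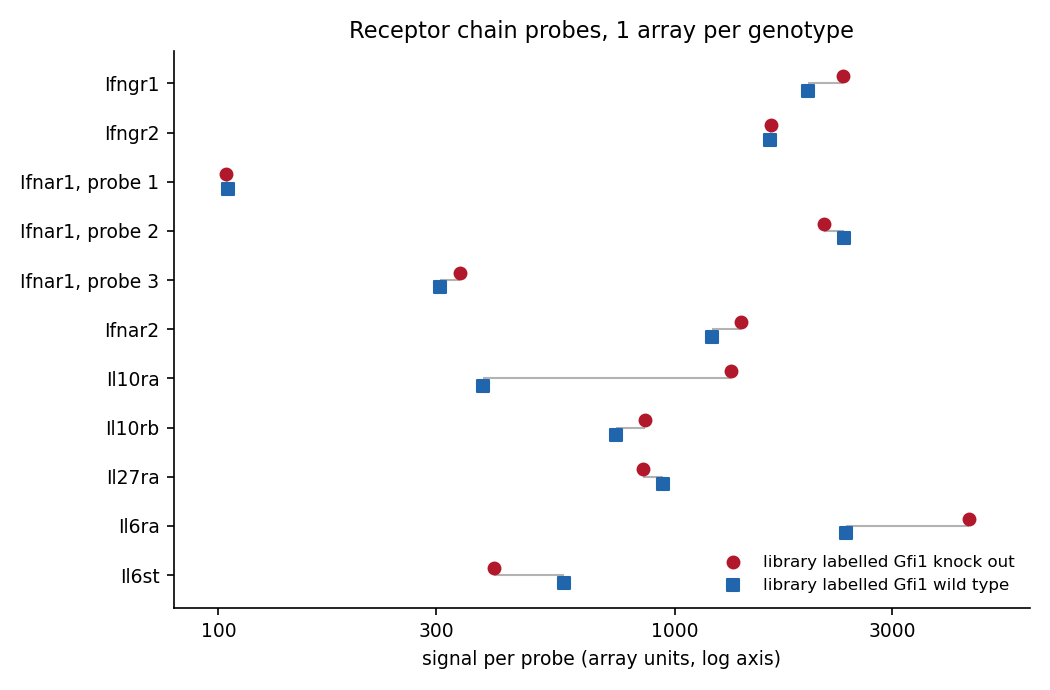
Signal of each of the 11 probes of the receptor genes in array units on a log axis, with circles for the library labelled Gfi1 knock out and squares for the library labelled Gfi1 wild type, 1 array each. The widest gaps are those of Il10ra (1330 units knock out, 380 units wild type by label) and Il6ra (4420 units knock out, 2370 units wild type), and the squares of Il6st, Il27ra and 2 of the 3 Ifnar1 probes lie to the right of the circles; positions of different probes are not comparable.

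The only error available is the spread within the arrays. Over the 103 probes printed on 10 spots with a signal between 500 and 5000 units, spots of one probe differed from each other with a median SD of 0.05 (log2), and over 63 such probes between 50 and 500 units this SD was 0.11. Different probes of one gene, for the 3655 genes that had them, differed with a median SD of 0.10. None of these covers variation between cultures or animals. For 8 of the 9 receptor genes a single probe on a single spot gave the value.

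The IFN-γ receptor chains differed little. Ifngr1, the chain that binds IFN-γ, read 2340 units in the knockout-labelled library and 1960 units in the wild-type-labelled library. Its difference was 0.22 (1.17-fold higher). Ifngr2, the accessory chain that brings JAK2 to the complex, read 1630 units in the knockout-labelled library and 1620 units in the wild-type-labelled library, a difference of -0.02. The value for Ifngr1 exceeded the typical SD over spots of 0.05, and that for Ifngr2 did not. The sign of Ifngr2 turned positive with cyclic loess (0.04) and without scaling. Of 1389 genes with a mean signal like that of Ifngr1, within 0.5 log2 units, 29.1% lay at least as far from 0.

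The type I interferon receptor chains also stood near 0. Ifnar2, which binds type I interferons with the higher affinity, read 1400 units in the knockout-labelled library and 1210 units in the wild-type-labelled library, a difference of 0.18. Ifnar1, the chain that carries TYK2, was the only member with several probes. Its probes read 2120, 104 and 339 units in the knockout-labelled library, against 2350, 105 and 306 units in the wild-type-labelled library. They did not lie on one side of 0, with differences of -0.18, -0.05 and 0.12, and their mean was -0.04 ± 0.15 (SD over 3 probes). The brightest probe alone gave -0.18, and the mean turned positive with cyclic loess (0.03). Among genes of like signal 87.4% lay at least as far from 0 as the Ifnar1 mean and 41.2% as far as Ifnar2.

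The IL-10 receptor chains parted. Il10ra, the chain that binds IL-10 and is found mainly on blood cells, read 1330 units in the knockout-labelled library, against 380 units in the wild-type-labelled library. The difference was 1.77, far above the typical SD over spots of 0.05 to 0.11 at such signals. Of 1551 genes of like signal, 16 including Il10ra itself were as high or higher (1.03%). Il10rb, the partner chain shared with the receptors for IL-22 and for interferon λ, read 862 units in the knockout-labelled library and 745 units in the wild-type-labelled library, a difference of 0.18. The ligand-binding chain thus differed by 1.60 more than its partner on the log2 scale. This gap between 2 genes of the same arrays is not moved by a scaling that shifts all probes of an array alike. The transcript of IL-10 itself lay below the detection floor on both arrays, at 4.61 units in the knockout-labelled library and 4.67 units in the wild-type-labelled library.

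The genes whose pair of scaled signals was nearest to that of Il10ra were sought among 8979 genes detected on both arrays by spots with feature numbers up to 50000. Likeness was the Euclidean distance over the 2 log2 signals, 1 per array. The nearest were Cd274 (distance 0.30), which encodes the inhibitory ligand PD-L1, BC147527 (0.35), Batf3 (0.45), a transcription factor of the AP-1 class, and Tgtp2 (0.45), an interferon-inducible GTPase. Cd274 read 1090 units in the knockout-labelled library and 408 units in the wild-type-labelled library, and Batf3 read 1070 units by the knockout label and 305 units by the wild-type label. With 2 arrays, such likeness says only that these genes had similar signals and similar differences.

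**Figure D2:**
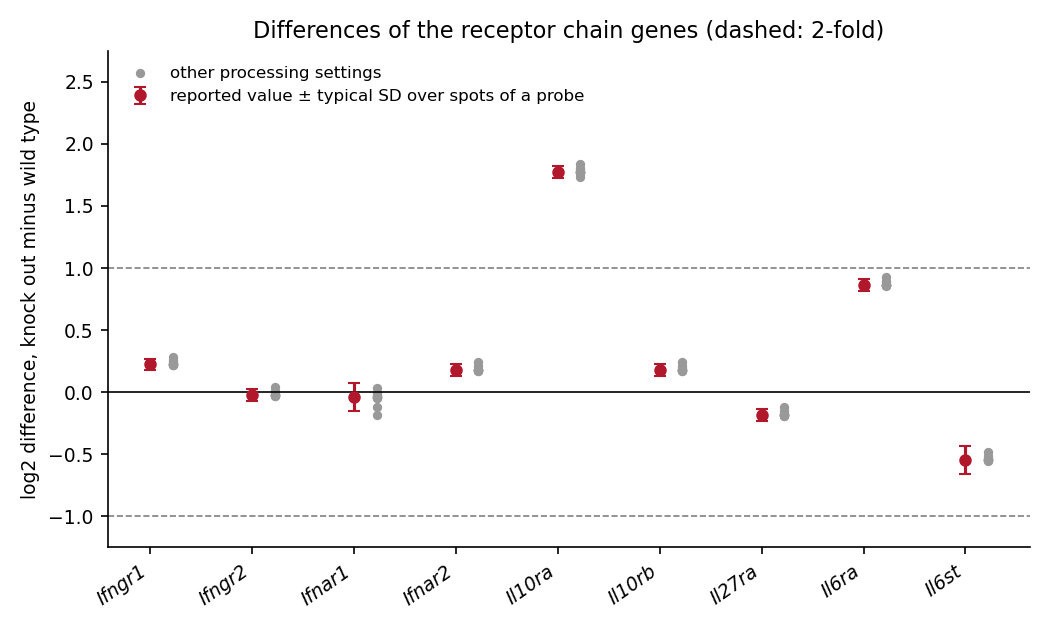
Log2 difference of each receptor gene, knock out minus wild type by label. Red points with bars are the reported values with the typical SD over spots of a probe at that signal (0.05 or 0.11), grey points are the values under other processing settings, and dashed lines mark 2-fold. Il10ra (1.77) lies above the upper line and Il6ra (0.87) below it under each setting shown, and the points of Ifngr2 and Ifnar1 fall on either side of 0.

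The chains of the IL-6 and IL-27 receptors went different ways. Il6ra, which binds IL-6 but does not itself carry a JAK kinase, read 4420 units in the knockout-labelled library, against 2370 units in the wild-type-labelled library. Its difference of 0.87 was just short of 2-fold, and 20 of 1181 genes of like signal, itself included, were as high or higher (1.69%). Il6st, which encodes gp130, the signalling chain used by IL-6, IL-27, IL-11, LIF and oncostatin M, read 401 units in the knockout-labelled library and 572 units in the wild-type-labelled library, a difference of -0.54. Of 1505 genes of like signal 45, itself included, were as low or lower (2.99%). Its spot has feature number 50265. Among spots of like signal, 11.2% of 615 above 50000 and 8.65% of 2105 up to 50000 lay at least as far from 0, and leaving out spots above 50000 leaves Il6st without a value. Il6ra and Il6st differed from each other by 1.41 on the log2 scale. Il27ra, the chain that pairs with gp130 to bind IL-27, read 851 units in the knockout-labelled library and 945 units in the wild-type-labelled library, a difference of -0.18. Both chains of the IL-27 receptor were therefore lower by label, but 42.5% of 1525 genes of like signal lay at least as far from 0 as Il27ra.

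The promoters of Il6ra and Il6st are printed because these partner chains had the largest differences of opposite sign among the members with a RefSeq promoter window. Each window runs from 250 bases before to 50 bases after the gene's start in build GRCm38.p6, 5′ to 3′ on the gene's strand, with capitals on AATC or its reverse complement GATT, the core of the sequence that GFI1 binds. The Il6ra window is chr3:89913147-89913446 on the minus strand and the Il6st window chr13:112463820-112464119 on the plus strand.
Il6ra: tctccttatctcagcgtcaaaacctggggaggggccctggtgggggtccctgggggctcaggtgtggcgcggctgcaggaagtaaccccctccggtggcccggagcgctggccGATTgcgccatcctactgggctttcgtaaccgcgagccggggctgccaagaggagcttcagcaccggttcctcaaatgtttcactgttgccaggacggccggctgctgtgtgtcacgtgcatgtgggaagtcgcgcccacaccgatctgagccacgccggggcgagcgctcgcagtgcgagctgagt
Il6st: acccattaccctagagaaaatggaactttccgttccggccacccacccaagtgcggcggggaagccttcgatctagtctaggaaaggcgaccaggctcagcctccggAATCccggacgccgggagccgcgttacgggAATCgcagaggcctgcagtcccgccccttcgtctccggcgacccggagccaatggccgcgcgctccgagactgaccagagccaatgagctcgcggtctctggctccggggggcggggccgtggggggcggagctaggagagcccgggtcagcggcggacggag
The Il6ra window held 1 core match, starting 137 bases before the gene's start, and the Il6st window held 2, starting 143 and 113 bases before it. On either strand 73.1% of 32851 promoter windows of this length held the core at least once, so a match is common. RefSeq windows were at hand for 6 of the 9 genes: Ifngr1, Ifngr2, Ifnar1, Ifnar2, Il6ra and Il6st. Ifngr1 held 2 core matches and Ifngr2, Ifnar1 and Ifnar2 held 0. The longer motif AAATCA, which contains the core, was in 0 of the 6 and in 14.0% of all windows. A STAT motif, TTCNNNGAA, occurred once in each of Ifnar1 and Ifnar2, in 0 of the other 4, and in 8.30% of all windows. All motifs were searched on both strands. These are matches of letters and show no binding.

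**Figure D3:**
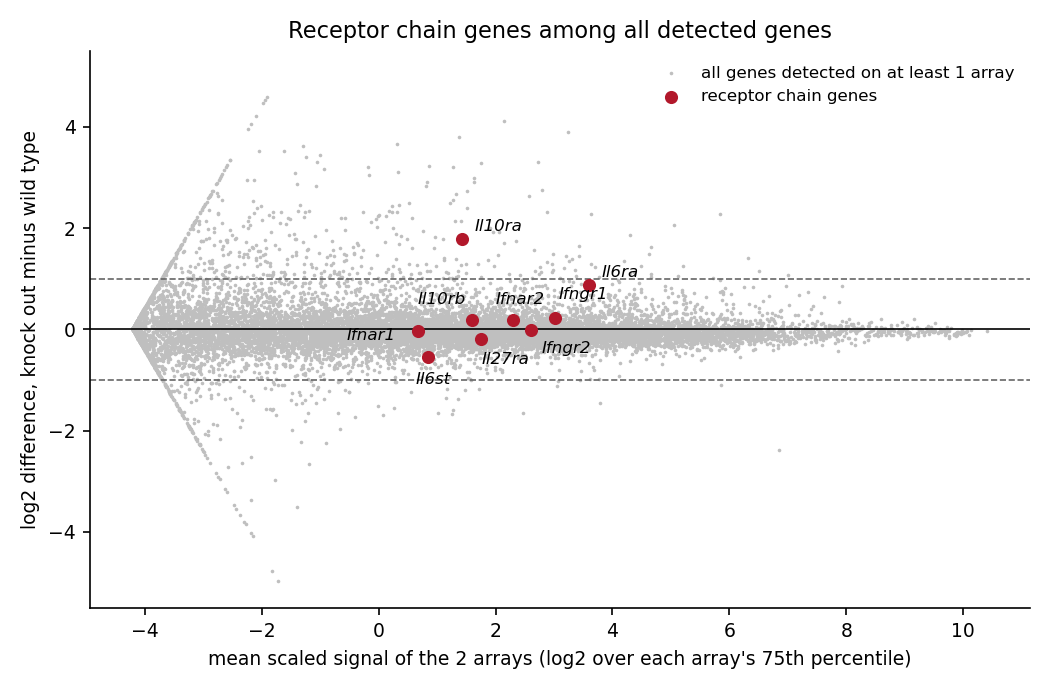
Log2 difference, knock out minus wild type by label, against the mean scaled signal of the 2 arrays for the 13411 genes detected on at least 1 array (grey) and the receptor genes (red); dashed lines mark 2-fold, the fans at the left are genes below the floor on 1 array, and 3 genes lie beyond the vertical range of 5.5 either way. Il10ra stands above the grey band, Il6ra at its upper edge, Il6st at its lower edge and the other 6 genes inside it.

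Of the 9 genes, 4 are neighbours in mouse. In the gene order of GRCm38.p6, Ifnar2, Il10rb, Ifnar1 and Ifngr2 follow each other on chromosome 16, with no other protein-coding gene between them. The 5 pseudogenes and non-coding genes that lie among them were not read by a named probe. The 4 chain genes differed by -0.04 to 0.18. On the side beyond Ifngr2, Tmem50b stood at 0.15 (2050 units in the knockout-labelled library, 1810 units in the wild-type-labelled library), Gart, an enzyme of purine synthesis, at -0.16 and Son at -0.13 ± 0.16 (SD over 2 probes). Dnajc28 read 19.5 units in the knockout-labelled library and lay below the floor in the wild-type-labelled library. On the side beyond Ifnar2, Olig1 and Olig2 lay below the floor on both arrays. Il10ra, Il6ra, Il6st, Ifngr1 and Il27ra lie on other chromosomes.

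Among the ligands of these receptors, Ifng, Lif and Il6 were past 2-fold higher in the knockout-labelled library. Of 30 ligand genes 20 were detected, 15 higher and 5 lower in the knockout-labelled library. Past 2-fold were 3 upward and 0 downward, and the median was 0.46. Beside this and the following lists, 41.6% of all detected genes were higher, 3.62% past 2-fold upward and 1.52% downward. Several ligand genes read little above the floor, such as Il22 (30.7 units in the knockout-labelled library, 18.3 units in the wild-type-labelled library). Ifng, which encodes IFN-γ, read 4944 units in the knockout-labelled library and 279 units in the wild-type-labelled library, a difference of 4.11. Lif, a ligand that signals through gp130, read 125 units in the knockout-labelled library and 26.3 units in the wild-type-labelled library, a difference of 2.22. Il6 read 60.1 units in the knockout-labelled library and lay below the floor in the wild-type-labelled library (11.1 units), so it was at least 4.14-fold higher. Of the 2 subunits of IL-27, Ebi3 stood at 0.59 (6790 units in the knockout-labelled library, 4410 units in the wild-type-labelled library) and Il27, the p28 subunit, at -0.10 (190 units by the knockout label, 199 by the wild-type label). Ifnb1, for interferon β, read 22.7 units in the knockout-labelled library and lay below the floor in the wild-type-labelled library.

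The kinases bound to the receptors stood near 0 and the transcription factors did not. Jak1 differed by -0.02 (7600 units in the knockout-labelled library, 7540 units in the wild-type-labelled library), Jak2 by 0.11 and Tyk2 by 0.04. The unscaled signals of Jak1 were slightly higher by the knockout label, so its sign depends on the scaling. The sign of the median over all genes also did, at 0.01 with cyclic loess. Stat2, a factor of the type I interferon response, read 3570 units in the knockout-labelled library and 1240 units in the wild-type-labelled library, a difference of 1.49. Irf9, a DNA-binding factor of that response, stood at 0.93 (3710 units by the knockout label, 1910 by the wild-type label), and Stat3 at 0.52. Of these 6 genes, 1 was at least 2-fold higher and 0 lower, with a median of 0.31.

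Inhibitors of these pathways were higher in part. Of 13 detected, 11 were higher and 2 lower, with 3 past 2-fold upward and 0 downward and a median of 0.26. Usp18, which binds the IFNAR2 chain and limits signalling from it, read 2610 units in the knockout-labelled library and 184 units in the wild-type-labelled library, a difference of 3.79. Socs3, the inhibitor that binds gp130, stood at 1.35 (4130 units by the knockout label, 1580 by the wild-type label). Socs1, which inhibits JAK kinases at the interferon receptors, stood at 1.11 (7820 units by the knockout label, 3540 by the wild-type label).

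Of 16 other chains of the same receptor families, 8 lay below the floor on both arrays, among them Ifnlr1, Lifr and Osmr, the partner chains for interferon λ, LIF and oncostatin M. Of the 8 detected, 4 were higher and 4 lower, with a median of 0.06. Il12rb2, the IL-12 receptor chain of T helper 1 cells, passed 2-fold at 3.09 ± 0.13 (SD over 2 probes). It read 292 units in the knockout-labelled library and 33.5 units in the wild-type-labelled library.

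In the lists of genes known to respond to the receptors most detected genes were higher, and the type I interferon list had the largest median. Which receptor or ligand these differences came from was not tested. Of 25 type I interferon targets 24 were higher and 1 lower, 21 past 2-fold upward and 0 downward; the median was 2.34. Beside Usp18, the furthest were Isg15 (3.30), Oas1a (3.20), Oasl2 (3.17), Ifi44 (2.94) and Ifit3 (2.87), all of them antiviral genes. Of 20 IFN-γ targets 18 were detected, all 18 of them higher and 10 at least 2-fold higher, with a median of 1.01. The furthest were Cxcl10, a chemokine, at 2.19, the GTPase genes Gbp6 at 1.93 and Irgm1 at 1.73, Cd274 at 1.39, the transcription factor gene Irf8 at 1.24 and the peptide transporter gene Tap1 at 1.16. Of 18 STAT3 targets 14 were detected, 11 higher and 3 lower, 4 past 2-fold upward and 0 downward; the median was 0.55. Those 4 were Tbx21 (3.00), which encodes the T helper 1 factor T-bet, Fos (1.86), Socs3 and the hypoxia factor gene Hif1a (1.12); none of them is a target of STAT3 alone. Over the 98 detected genes of these 7 lists, some of which stand in several lists, 39 were past 2-fold upward and 0 downward. Of all detected genes, 3.62% were past 2-fold upward and 1.52% downward. The median of the 98 was 0.68, against -0.05 over all detected genes. Without spots above feature number 50000, 35 genes of these lists were past 2-fold upward. The lists were chosen with earlier results of these data known.

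**Figure D4:**
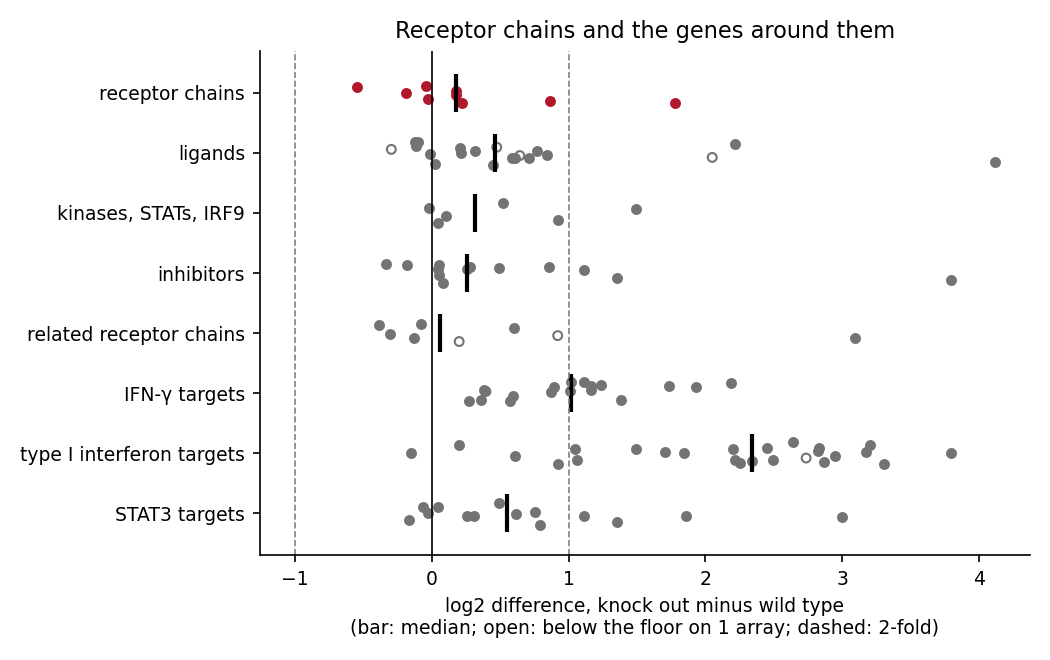
Log2 differences, knock out minus wild type by label, of the detected genes of 8 groups; each point is a gene, open points lay below the floor on 1 array, bars are medians and dashed lines mark 2-fold. The receptor chains (median 0.18) and related chains (0.06) have the lowest medians, the type I interferon targets (2.34) the highest.

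Among detected markers of other cell types, the CD8 T/NK list was higher throughout by the knockout label and the B cell list mostly so. The myeloid and granulocyte lists were split in direction. Of all detected genes, 41.6% were higher by the knockout label and 3.62% at least 2-fold higher. The part of other cell types in the Il10ra, Il6ra and target gene differences was not tested. Of 12 markers of CD8 T and NK cells all 12 were detected and higher in the knockout-labelled library, 7 at least 2-fold, with summed signals of 4085 units in the knockout-labelled library and 1636 units in the wild-type-labelled library. The largest parts of both sums were Eomes (1843 units by the knockout label, 649 by the wild-type label) and Prf1 (814 units by the knockout label, 504 by the wild-type label). Cd8a, Klrk1, Klrb1c and Ncr1 lay below the floor in the wild-type-labelled library. By the knockout label they read 34.9, 18.2, 20.8 and 28.3 units, where the floor was 14.6 units. Of 12 B cell markers 9 were detected, 8 of them higher and 3 at least 2-fold, with summed signals of 1329 units by the knockout label and 607 by the wild-type label. Those 3 were Blnk (386 units by the knockout label, 30.6 by the wild-type label), Ms4a1 (221 units by the knockout label, 18.9 by the wild-type label) and Fcer2a (142 units by the knockout label, 31.1 by the wild-type label), while Pax5 lay below the floor on both arrays and Ebf1 in the wild-type-labelled library. Cd79b was lower (256 units by the knockout label, 281 by the wild-type label). Cd22 stood at 0.37, Cr2 at 0.25, Vpreb3 at 0.08 and Cd79a at 0.41 ± 0.72 (SD over 2 probes). Of 13 myeloid markers 8 were detected, 4 higher and 4 lower, with 1 at least 2-fold higher, and Lyz2 and Cd14 lay below the floor on both arrays. That 1 was Mpeg1, which read 335 units by the knockout label and lay below the floor by the wild-type label, at least 23.1-fold higher. The summed myeloid signals were 1553 units by the knockout label and 874 by the wild-type label, or 1571 units by the knockout label and 1225 by the wild-type label with readings below the floor set to it. Much of the gap in the first pair of sums came from a Siglech probe that lay near or below the floor (15.2 units by the knockout label, 5.28 by the wild-type label); its brighter probe differed by -0.07. Of 10 granulocyte markers 5 were detected, 2 higher and 3 lower. Mmp8 read 106 units by the knockout label and lay below the floor by the wild-type label; its fold was at least 7.30, and its spot has a feature number above 50000. The sums, 44783 units by the knockout label and 46094 by the wild-type label, were almost wholly Csf3r, and S100a8 and S100a9 lay below the floor on both. CD4 T cell markers summed to 129605 units in the knockout-labelled library and 161032 units in the wild-type-labelled library, with 8 of 9 lower and a median of -0.23. The other, Cd247, stood at 1.85 ± 1.99 (SD over 2 probes).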

How the data were processed

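RNA of 2 cultures was read on 1-colour (Cy3) arrays, with 100 ng of total RNA labelled per array per the labels' protocols. Per the submitters' processing notes, Agilent Feature Extraction 11.5.1.1 was used. Each deposited per-array file holds the authors' linear intensity of every spot under a column headed as raw. No source used here states a background correction, and neither flags nor control spots are included. A second table deposited by the authors holds an intensity per feature number, close to the per-array signal times 2.26 (knock out) or 2.27 (wild type). Its scale is linear with no centring, and the origin of the factors is unknown.

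Signals were put on the log2 scale, averaged where a probe had several spots, and scaled to each array's 75th percentile over 55681 probes. A probe was detected above its array's median (14.6 units for knock out, 14.2 for wild type by label), a convention in the absence of flags. Probes below this floor on both arrays were dropped. Where a probe was below it on 1 array, that array's floor took its place, which makes the fold a lower bound. Probes of one gene were averaged. Signals of genes with several probes are geometric means. The number of arrays limits the precision.

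Symbols came from the platform annotation (31465 spots with 1 symbol, 0 with several, 27840 without), updated through RefSeq (GRCm38.p6) by accession for 29050 spots, by symbol for 2061 and by synonym for 349, while 5 kept theirs. The RefSeq table served for names, gene order and promoters.

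With 1 array per genotype no test was run and genes were described by size at 2-fold. The receptor genes and lists were chosen with earlier results of these data known. The genes that may be named are all members, Gfi1, the genes of each list past 2-fold (up to 6, furthest first), the kinase and STAT list, up to 5 neighbours on each side of the chromosome 16 block, and the 4 genes nearest to each member past 2-fold. Il10, Il19, Il22, Il24, Il27, Ebi3, Ifnb1, Eif2s3y and Xist were named after their values were seen. So were the related chains below the floor and the cell type markers. Alternatives were other scalings, floors, probe summaries and fold thresholds, an offset, the authors' deposited table and leaving out spots above feature number 50000. The steps were tested on simulated arrays with noise taken from replicated spots. That check was set on large differences and held no variation between cultures or animals. Python 3.11.15, pandas 2.3.3, numpy 2.4.6, matplotlib 3.10.9 and statsmodels 0.14.6 were used.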

Additional observations from a re-analysis of the deposited data

How the results depend on the processing

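The count of receptor genes at least 2-fold higher was 1 under each of the scalings, floors, probe summaries and other settings tried, and at a 3-fold threshold; it was 2 at a threshold of 1.5-fold, where Il6ra joins Il10ra. The count of at least 2-fold lower members was 0 under all of these settings. The median difference of the members lay between 0.17 and 0.21, except with cyclic loess, where it was 0.24 and the median of all genes 0.01. Il10ra kept its sign under all 13 settings that give differences, from 1.73 (an offset of 16 units) to 1.84 (cyclic loess). Il6ra ranged over 0.86 to 0.93, and Il6st over -0.55 to -0.48 in the 12 settings that measured it. Ifngr2 was above 0 in 2 of 13 settings and Ifnar1 in 1 of 13, so neither has a settled direction. Of 107 member values under alternatives, 8 moved by more than the typical SD over spots, 7 of them with cyclic loess and 1, Ifnar1, with the brightest probe. The pathway genes at least 2-fold higher numbered 39, with 28 under a floor at the 75th percentile, 46 under a floor at the 25th, 27 at 3-fold and 56 at 1.5-fold. No paired analysis was possible because each genotype has 1 array. Without background flags, signal over background could not be set for any probe, and variation between cultures or animals was not measured.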
